A study of Drosophila melanogaster with 19 samples.

Results

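Long noncoding RNAs with a substantial level in at least 1 neuron type of the adult Drosophila melanogaster optic lobe numbered 57, of 1797 genes in the count table whose FlyBase symbol starts with lncRNA and of 17558 genes in all. A gene entered this set when its mean level reached 50 CPM (a gene's reads for every 1000000 reads counted to genes in the same library, here the mean of 3 libraries) in at least 1 of 17 sorted neuron types. The genes were thus chosen by their levels in the 17 types, which are described without a test. The contrast between a mixture of T1 and Tm1 neurons and sorted neurons as a whole was not used in that choice and is tested. The choice and the contrast are still not independent. T1 is both 1 of the 17 types and a part of the mixture. Sorted neurons are optic lobe neurons as a whole, so they may hold the other types too. Only 1 of the 57 was highest in T1. An RNA chosen for its level in another type can thus read lower in the mixture through the choice itself. All 57 carry the biotype ncRNA in Ensembl release 115, and all 57 passed the filter on low counts of that test.

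The groups were the sorted T neurons (T1, T2, T3 and T5), the Tm neurons (Tm2, Tm3, Tm5ab, Tm5c and Tm9), the Dm neurons (Dm2, Dm8 and Dm12), Mi1, the Lawf neurons (Lawf1 and Lawf2) and the C neurons (C2 and C3), then the T1 and Tm1 mixture, then optic lobe neurons as a whole (titled Elav in the labels), called sorted neurons here. Flies were 3 to 6 days old in every group, and their sex is not given in the sources used here. In each group a Gal4 driver line switched on the red nuclear protein UAS-Red Stinger, so a group holds the cells that its driver marks, and nuclei-labelled cells were sorted by fluorescence (FACS). Each group is 1 GEO sample with 3 numbered libraries, 57 in all, made with SMART-Seq v4, which primes on poly(A) tails, and Nextera XT. Lamina wide-field (Lawf), distal medulla (Dm), medulla intrinsic (Mi), transmedullary (Tm), T and C neurons are classes of the fly visual system. Nothing says that the libraries of a sample came from separate dissections, so the p-values below measure only the spread between libraries, which may be technical.

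Long noncoding RNAs are transcripts without a long open reading frame. Some act as RNA scaffolds, as roX1 does on the male X chromosome and Hsromega does in the nuclear omega speckles that hold hnRNP proteins. Others are precursors of microRNAs, as let7C is for let-7, and many have no described role. In the nervous system such RNAs are known for sharp restriction to cell types. In bulk libraries of sorted cells, fewer cells that carry a transcript and less of it in each cell cannot be told apart.

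Libraries held 602175 to 72677109 gene reads, with a median of 21759658. T2 was the shallowest group, with 9444398, 2531086 and 602175 gene reads, and their TMM scaling factors (0.485 to 0.697) lay below those of every other group (0.777 to 1.27). The neuronal markers elav and nSyb were present in every type, with type means of 394 to 978 CPM and of 1090 to 2976 CPM. The glial factor repo stayed at or below 6.0 CPM and the photoreceptor opsin ninaE at or below 1.99 CPM in every type mean. The transporter Eaat1, used here as a T1 marker, had 31307 CPM in T1. Other markers varied more. The neuronal gene brp had 17.6 CPM in T1, against 1156 CPM in sorted neurons. The 9 glial markers summed to 98.6 CPM in Mi1 and 870 CPM in Lawf1, where Eaat1 had 1.85 CPM. The summed photoreceptor list stayed at or below 13.4 CPM, while 5 hemocyte markers summed to 53.2 CPM in T2 and 782 CPM in Mi1. The source of these reads was not tested.

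The 57 long noncoding RNAs took 1.78% ± 0.110 of gene reads in C2 and 1.79% ± 0.0485 in T1, the lowest shares, and 4.52% ± 0.536 in Tm5ab, the highest (SD, n = 3 libraries each). They held 96.4% of all reads counted to long noncoding RNA genes. Of the 1797 such genes, 83 had no read in any library and 1139 stayed below 1 CPM in each type mean. Hsromega and noe alone held 77.0% of the reads of the 57, and these 2 with CR42862 and mimi held 91.1%. In the type where each was highest, 4 of the 57 reached 1000 CPM or more, 32 lay between 100 and 1000 CPM and 21 lay below 100 CPM.

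At the level that defined the set, CR44187 (60.3 CPM in Lawf2), CR43826 (58.3 CPM in T3) and CR45973 (51.7 CPM in T2) were just inside. CR32218 (48.6 CPM in Tm5c), CR45982 (47.6 CPM in Mi1) and CR46078 (45.7 CPM in T2) were just outside. CR45973 entered through 1 shallow library, since its T2 libraries had 36.2, 36.0 and 83.0 CPM.

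The genes lay on all large chromosome arms, with 19 on 2L, 14 on 3R, 11 on X, 8 on 3L and 5 on 2R, and none on chromosome 4. Their exons covered 214 to 21710 bases with a median of 1267, against a median of 615 over all long noncoding RNA genes. Protein-coding genes that reached 50 CPM in a type had a median of 2822 exon bases. A single exon made up 27 of the 57, and 17 lay within the span of a protein-coding gene, 14 of them on the opposite strand. Neither kit keeps the strand of the RNA, so a read over exons of both strands could belong to either gene. Over 10% of exon bases were shared with another gene for 16 of the 57, up to 10% for 13, and none for 28. Names and positions come from Ensembl release 115 on BDGP6.

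The abundant, broadly present RNAs are described first. Hsromega, the heat-inducible RNA of the omega speckles, lies on 3R from base 21296127 to 21317836. Its Lawf2 libraries had 29394, 23975 and 30155 CPM and its Tm5ab libraries had 15680, 22494 and 23734 CPM. All 3 Lawf2 libraries lay above every library of the other 16 types, the highest of which had 23734 CPM. The lowest level was in T1, at 4273, 3792 and 3503 CPM, and the highest and lowest type means differed 7.22-fold. Sorted neurons had 6085, 6144 and 7429 CPM, so 16 of the 17 type means lay above the sorted neuron mean.

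noe, an RNA known from the adult nervous system, is a single-exon gene within the span of blot on the same strand, on 3L from base 17400272 to 17401348. Its order of types differed from that of Hsromega. The Tm5ab libraries had 16822, 19140 and 16808 CPM, and Lawf2, the highest type for Hsromega, was the lowest for noe at 1178 CPM. Across the 17 type means the Pearson r between the logged levels of both RNAs was -0.27, a description over means that share libraries and depth. Sorted neurons had 17668, 15442 and 17870 CPM of noe, and 16 of 17 type means were below that mean. Per kilobase of exon, noe reached 16333 CPM in Tm5ab and Hsromega 1282 CPM in Lawf2, so the smaller gene had the higher level per length although Hsromega took more reads in 14 of 17 types.

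CR42862 and mimi were also at or above 50 CPM in all 17 types. CR42862 had 4422, 4933 and 5213 CPM in Dm12 and 4241, 3903 and 4048 CPM in T1. It was lowest in C3, with a mean of 371 CPM. mimi, described in Drosophila as a scaffold of neuronal RNA granules, had 3910, 4241 and 3527 CPM in Tm5ab, 2888 ± 997 CPM in T3 and 2855 ± 228 CPM in Lawf2. It was lowest in Tm2 at 118 CPM and in Mi1 at 160 CPM, so mimi varied 33.0-fold between its highest and lowest type means, more than Hsromega did.

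**Figure D1:**
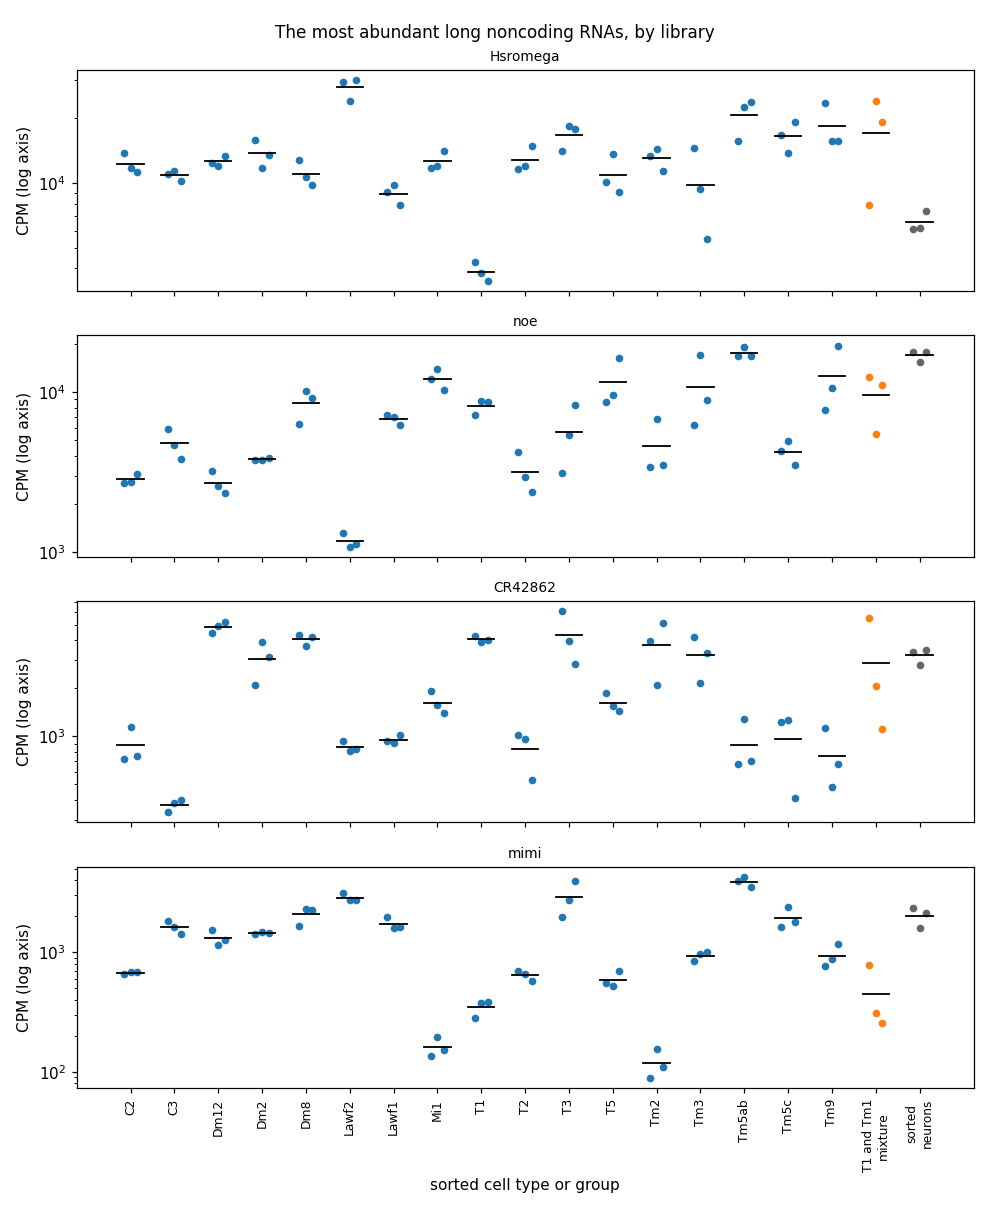
CPM on a log axis of Hsromega, noe, CR42862 and mimi in each library (points) of 17 sorted types, the T1 and Tm1 mixture (orange) and sorted neurons (grey), with the mean of 3 libraries as a bar. Lawf2 holds the highest Hsromega libraries and the lowest noe mean, 1178 CPM.

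The fifth gene at or above 50 CPM in all 17 types was CR45054, between 74.7 CPM in C2 and 271 ± 31.4 CPM in T5. These 5 genes made up 8.77% of the 57, against 22.1% of the 4769 protein-coding genes that reached 50 CPM in a type. At the other end, 15 of the 57 (26.3%) reached 50 CPM in 1 type only, against 11.4% of those protein-coding genes. These shares count the same type means that chose the 57, and they depend on how far above 50 CPM a gene lies. Nothing is read from these differences. A further 19 reached it in 2 to 5 types and 18 in 6 to 16 types, and 11 had no read at all in at least 1 type.

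The 10 genes with the smallest ratio of highest to lowest type mean began with CR44816, which varied 3.48-fold, between 42.2 CPM in T1 and 147 ± 43.3 CPM in T2. CR45054 varied 3.63-fold, CR43459 4.07-fold and CR45973 4.25-fold. CR46064 (5.11-fold), CR44417 (5.46-fold), CR30055 (6.13-fold), Hsromega (7.22-fold), CR43685 (7.70-fold) and CR43493 (8.06-fold) completed the group. Even these most evenly spread RNAs differed several-fold between their highest and lowest type means. For CR44816 and CR45973 the highest type was T2, the shallowest group. Their next types had 102 CPM (CR44816 in Tm2) and 46.9 CPM (CR45973 in Dm8). CR44816 shares 77.3% of its exon bases with Marf on the other strand, CR46064 shares 27.7% with another gene and CR45973 shares 13.9%.

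Genes with a leading type come next, meaning that all 3 libraries of the type of highest mean lay above all 48 libraries of the other 16 types. This held for 28 of the 57 (49.1%). Over all genes tested it held for 23%, and over tested genes that reached 50 CPM in a type for 35%. These levels chose the 57, so nothing is read from that difference. By type the 28 were 7 in Lawf1, 4 in T3, 3 each in Dm12, Dm8 and T5, 2 each in T2, Tm2 and Tm5c, and 1 each in Lawf2 and T1.

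**Figure D2:**
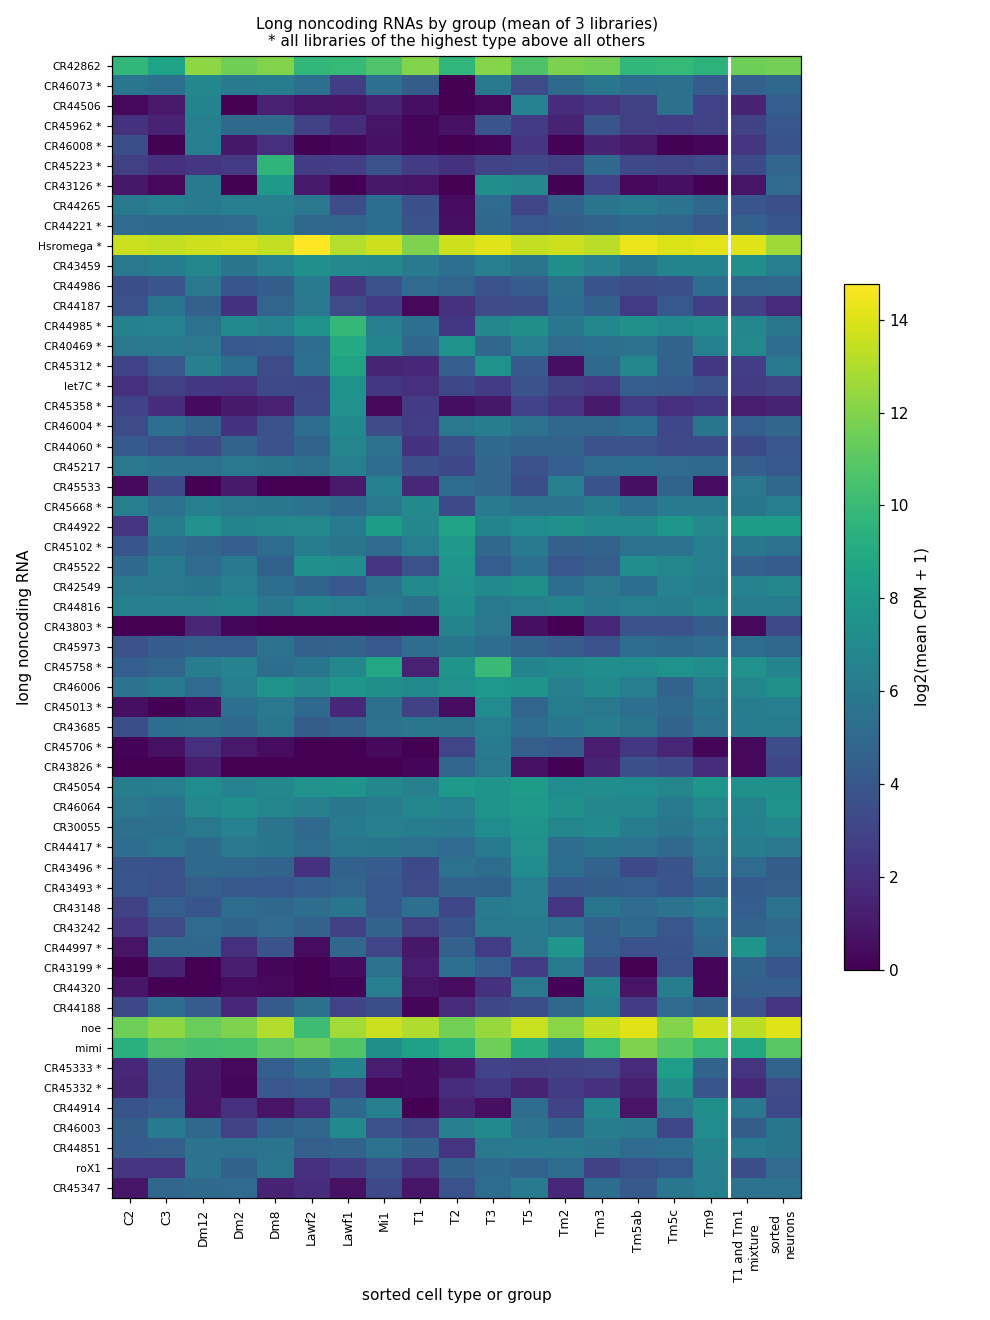
log2(mean CPM + 1) of the 57 long noncoding RNAs (rows, ordered by the type of highest mean) in 17 sorted types, the T1 and Tm1 mixture and sorted neurons (columns). Hsromega and noe are bright in every column, and an asterisk marks the 28 with a leading type.

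In the distal medulla neuron Dm8, CR45223 had 720, 916 and 830 CPM. The next type, Tm3, had 40.0, 19.6 and 34.7 CPM, and no other type mean passed 12.3 CPM. The Dm8 mean of 822 CPM was 26.1-fold that of Tm3, the largest ratio between highest and next type among the 28. The gene lies on 3R from base 17646903 to 17653478 and shares 7.62% of its exon bases with CG14322 on the opposite strand. CR43126 was also highest in Dm8, at 265, 259 and 206 CPM, but it extended to T3 (159 ± 38.2 CPM), T5 (124 ± 8.42 CPM) and Dm12 (70.1 ± 17.1 CPM). It had no read in T2, which allows up to 0.238 CPM by counting error over the T2 libraries, and 0.0419 CPM in Tm2.

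In the wide-field neuron Lawf1, CR44985 had 838, 1034 and 849 CPM, against 180 ± 13.8 CPM in Lawf2, the next type. CR44985 shares 54.3% of its exon bases with Ncoa6 on the opposite strand, which was also highest in Lawf1. CR45358 had 142, 179 and 203 CPM in Lawf1 and 9.05 ± 2.26 CPM in Lawf2, a ratio of 19.3 between the means, and it shares no exon base with another gene. CR40469 had 404, 510 and 625 CPM in Lawf1 and 181 ± 84.8 CPM in T2, and CR45312 had 381, 410 and 411 CPM in Lawf1 and 189 ± 76.8 CPM in T3. Lawf1 and Lawf2 are both lamina wide-field neurons, and the 7 RNAs led by Lawf1 were 3.64-fold to 21.8-fold higher there than in Lawf2. With TMM-scaled levels, which raise T2, 5 genes rather than 7 were led by Lawf1.

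let7C, the shared precursor of mir-100, let-7 and mir-125, was also led by Lawf1. Its Lawf1 libraries had 163, 176 and 209 CPM, and the next type, Tm5ab, had 17.8, 24.2 and 20.1 CPM. Lawf1 was 8.82-fold above Tm5ab and did not overlap with any other type, and sorted neurons had 7.31 ± 1.12 CPM. The values are reads counted to the gene of the long precursor, and poly(A)-primed libraries do not measure mature microRNAs. let7C spans 2L from base 18455717 to 18473132 and shares 18.7% of its exon bases with these microRNA genes and with CG10283 on the opposite strand. CG10283 was itself highest in Lawf1, at 816 CPM, with Tm5ab next at 172 CPM. Reads over the shared bases could belong to either gene, and their part in the let7C values was not tested.

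In the transmedullary neuron Tm5c, the neighbours CR45333 and CR45332, which lie 87 bases apart on 2L on the same strand, were both led by the same type. CR45333 had 244, 415 and 252 CPM in Tm5c and 94.8 ± 10.8 CPM in Lawf1. CR45332 had 179, 186 and 107 CPM in Tm5c and 18.6 ± 4.30 CPM in Lawf2. In Tm2, CR44997, a gene that spans 140359 bases of X, had 152, 253 and 210 CPM, against 59.6 ± 0.188 CPM in T5.

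In Dm12, CR46008 had 99.8, 71.6 and 70.8 CPM, followed by C2 with 9.79, 11.8 and 10.8 CPM. It had no read in T2. In T3, CR45706 had 63.5, 64.9 and 69.0 CPM, followed by T5 with 21.4 ± 0.726 CPM, and it had no read in Lawf1, Lawf2 or T1. CR45758 was also led by T3, at 674, 1037 and 1207 CPM, with Mi1 next at 459 ± 44.9 CPM and T1 lowest at 1.58 CPM. Both T3 RNAs were thus near or at 0 in T1.

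In T5, CR43496 had 135, 176 and 125 CPM, followed by Tm9 with 47.2 ± 13.5 CPM, and CR43493 had 72.8, 83.9 and 80.7 CPM, followed by Lawf1 with 27.1 ± 6.45 CPM. In T2, CR45102 had 276, 267 and 218 CPM, followed by Tm9 with 81.4 ± 11.6 CPM. T2 was the highest type for 7 of the 57, and CR44922 had the highest of these levels, at 297, 506 and 357 CPM with Mi1 next at 272 ± 44.0 CPM, where the libraries overlapped. With TMM-scaled levels, T2 was highest for 11 rather than 7, and 51 of the 57 kept their type of highest mean. In T1, CR45668 had 133, 120 and 127 CPM and was the only RNA of the 57 led by T1, with Dm12 next at 81.3 ± 8.14 CPM. CR45668 shares 30.1% of its exon bases with CG16721 on the opposite strand.

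**Figure D3:**
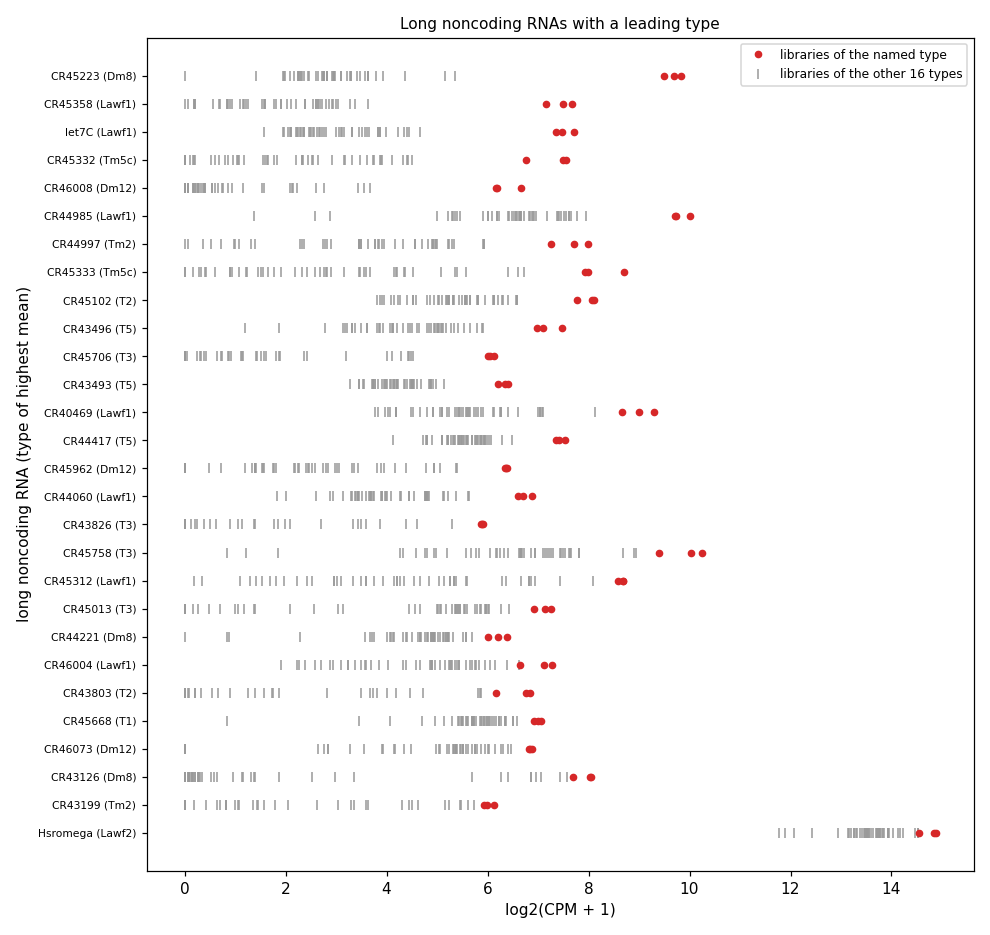
log2(CPM + 1) of the 28 long noncoding RNAs with a leading type, in the 3 libraries of that type (red points) and in the 48 libraries of the other 16 types (grey marks), ordered from the largest ratio of highest to next type mean at the top. CR45223 in Dm8 (822 CPM) stands farthest from the next type (Tm3, 31.4 CPM), while Hsromega in Lawf2 is close to its next type.

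RNAs that hold microRNAs form a further group. On the same strand, 6 of the 57 hold annotated microRNA genes within their span. These are Hsromega (mir-4951), let7C (mir-100, let-7, mir-125), CR43459 (mir-277, mir-34), CR46006 (mir-276a), CR46004 (mir-276b) and CR45347 (mir-4973). CR43459 was broad, with 137, 170 and 201 CPM in Lawf2, 167, 157 and 164 CPM in Tm2 and its lowest mean, 41.6 CPM, in T2. CR46006 had 200, 251 and 236 CPM in T3 and 221, 208 and 208 CPM in Lawf1, which overlap, and was lowest in Tm5c at 23.6 CPM.

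CR46004, which holds the sister microRNA, had 155, 138 and 99.1 CPM in Lawf1, followed by T3 with 52.8, 69.7 and 98.2 CPM. The 2 hosts of the mir-276 microRNAs lie 2901 bases apart on 3L, and r between them across types was 0.39. CR45347 had 92.3, 55.3 and 97.6 CPM in Tm9, overlapping T5 (63.8, 68.8 and 59.8 CPM), and 0.562 CPM in Lawf1, where let7C was highest, and it shares 19.7% of its exon bases with the annotated mir-4973. The 6 microRNA hosts thus had 4 different highest types, Lawf1, Lawf2, T3 and Tm9.

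roX1, an RNA of the complex that raises expression of the male X, was scattered between libraries of a type. Its Tm9 libraries had 17.4, 168 and 70.2 CPM, and Dm8 followed with 67.4, 46.6 and 49.0 CPM. The Tm9 mean of 85.3 ± 76.5 CPM therefore rests on 2 libraries. Its partner roX2 was not among the 57. In the same Tm9 libraries roX2 had 0.885, 34.4 and 17.3 CPM, so both roX RNAs were low in the first and high in the second. Of the 17 type means of roX1, 6 were below 10 CPM, with Lawf2 at 2.94 CPM and T1 at 3.32 CPM the lowest. The share of male and female flies in each library is not given, and its part in these values was not tested.

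The tested comparison set the T1 and Tm1 mixture against sorted neurons, with edgeR's quasi-likelihood test over all 12569 genes that passed the filter. Of the 57 long noncoding RNAs, 9 were higher and 10 lower in the mixture at an adjusted p below 0.05, and 38 made no call. That is 33.3% of the 57, against 7.96% of all genes tested. The 57 were chosen by level, while all genes tested include many of low count. Of the 4769 protein-coding genes that reached 50 CPM in a type, 751 were called, against 19 of the 57. That background is nearer to the 57 in level, and its share called was larger than the 7.96% of all genes tested. The difference from either background was not tested, and the choice of the 57 through single types can itself add to the calls. The shares higher were 15.8% of the 57 and 4.5% of all genes tested, and the shares lower were 17.5% and 3.46%. The median log2 fold change was 0.13 over the 57 and 0 over all genes tested. Among the other 817 long noncoding RNA genes tested, 13 were higher and 17 lower. DESeq2 called all 19 in the same direction and 2 further RNAs lower, with background shares over the genes it tested of 12.4% in all, 6.84% higher and 5.57% lower. The libraries of both groups did not overlap for 34 of the 57, with the mixture above in 13 and below in 21. Over all genes tested the groups did not overlap for 34.2%, with the mixture above in 6.96% and below in 27.2%.

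The CPM values given here are scaled to the library's gene reads, while edgeR's log2 values carry TMM factors, which raise the mixture by 0.30 on the log2 scale relative to sorted neurons. The mixture libraries also differed in the T1 marker Eaat1, with 4347, 4119 and 758 CPM, against 644, 361 and 497 CPM in sorted neurons. The share of T1 cells in each mixture library is not given. Its part in the results below was not tested, and the T1 mean of each RNA named by its values is given with them. The T1 mean lay below the sorted neuron mean for 49 of the 57, including all 9 higher and all 10 lower RNAs and 30 of the 38 without a call. This count uses CPM without TMM factors, which were 1.21 to 1.27 in sorted neurons and 0.968 to 0.987 in T1. The share over all genes was not computed, so nothing about the 57 is read from it. Both genes listed as Mi1 markers, bsh and hth, were also higher in the mixture. Their summed level was highest in Lawf1, at 4053 CPM, against 2211 CPM in Mi1, so the list does not single out Mi1. The homeobox gene bsh had 143, 141 and 83.3 CPM in the mixture, against 40.1, 27.2 and 32.3 CPM in sorted neurons (log2 fold change 2.19, adjusted p = 0.049, edgeR), and DESeq2 did not call it (adjusted p = 0.259). hth, a homeobox gene as well, had 508, 542 and 549 CPM in the mixture, against 320, 364 and 309 CPM in sorted neurons (log2 fold change 0.99, adjusted p = 1.68e-05, edgeR). T1 had 1.06 CPM of bsh and 63.5 CPM of hth, and the part of these genes' cells in the results was not tested.

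**Figure D4:**
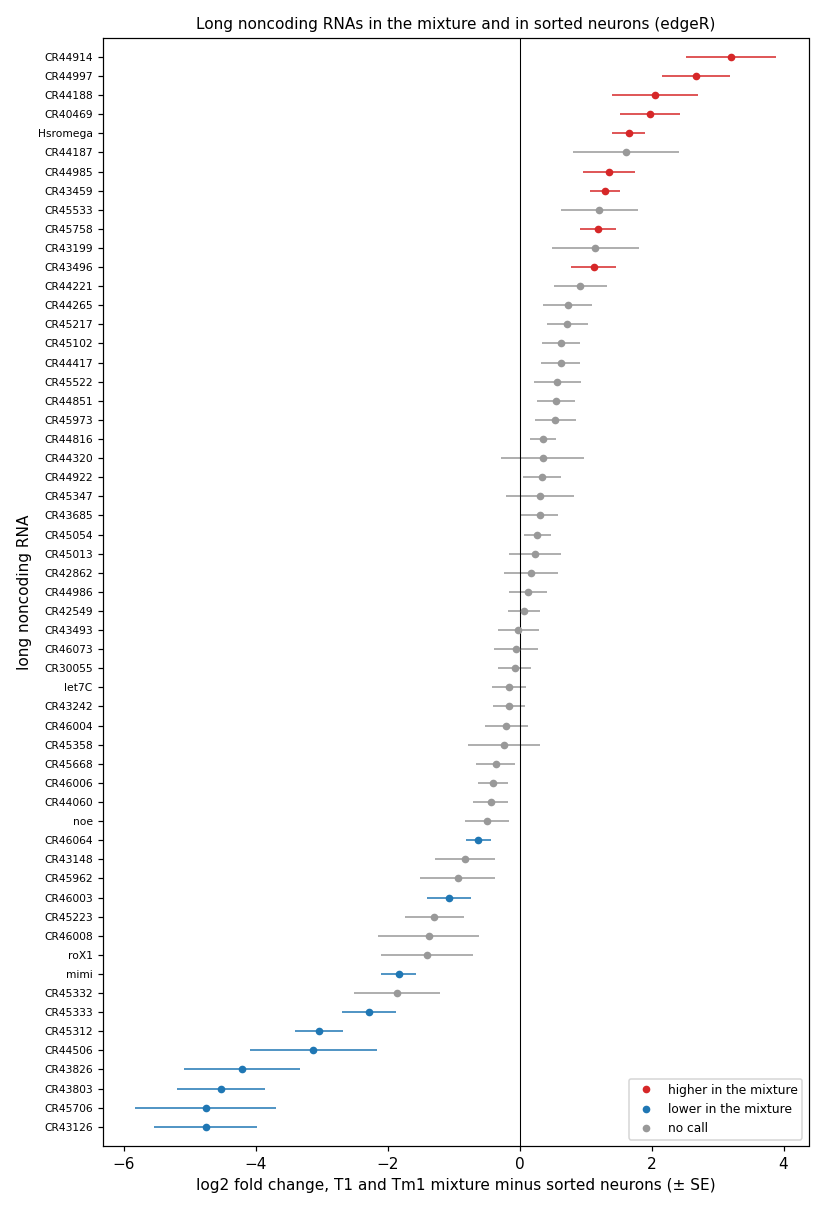
log2 fold change of the T1 and Tm1 mixture over sorted neurons for the 57 long noncoding RNAs, with its standard error (bars), from edgeR over 57 libraries. The 9 higher RNAs (red) reach 3.21 for CR44914 and the 10 lower ones (blue) reach -4.76 for CR43126.

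The largest rise was that of CR44914. It had 51, 57.7 and 79.9 CPM in the mixture, against 6.53, 11.2 and 7.48 CPM in sorted neurons. The groups did not overlap, and the log2 fold change was 3.21 ± 0.69 (SE, adjusted p = 0.00116, edgeR). T1 itself had no read of CR44914, which allows up to 0.0443 CPM by counting error, and Tm9 had its highest mean at 162 ± 61.5 CPM.

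CR44997, led by Tm2 among the single types, had 110, 221 and 277 CPM in the mixture, against 40.6, 38.9 and 37.2 CPM in sorted neurons. Every mixture library was above every sorted neuron library, with a log2 change of 2.67 ± 0.51 (SE, adjusted p = 0.000241, edgeR). Its T1 mean was 0.958 CPM. Hsromega had 7870, 23936 and 19137 CPM in the mixture, against 6085, 6144 and 7429 CPM in sorted neurons. The first mixture library lay only slightly above the sorted neurons, and the log2 fold change was 1.65 ± 0.25 (SE, adjusted p = 2.82e-06, edgeR). T1 had 3856 CPM.

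The heat shock genes, of which Hsromega is one by its induction, were read beside it. Of 15 tested genes of the heat shock list, 2 were higher in the mixture and none lower, and the median log2 fold change of the list was -0.12. The 2 were the chaperones Hsp70Bb, with 126, 31.3 and 124 CPM in the mixture and 4.77, 3.82 and 2.41 CPM in sorted neurons, and Hsp70Ba, with a log2 fold change of 2.19 (adjusted p = 0.00985, edgeR). The Hsp70 genes are near-identical copies, so reads may be split between them. Across the 3 mixture libraries, 7870, 23936 and 19137 CPM of Hsromega stood beside 126, 31.3 and 124 CPM of Hsp70Bb. The second library was thus highest for Hsromega and lowest for Hsp70Bb. With 3 libraries nothing is read from these orders, and a link between both genes was not tested.

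CR40469 had 163, 56.4 and 143 CPM in the mixture, against 36.1, 20.2 and 57.7 CPM in sorted neurons. The libraries overlapped, although the test called it at a log2 change of 1.98 ± 0.45 (SE, adjusted p = 0.00209, edgeR), and T1 had 29.8 CPM. CR44188 had 15.1, 15.3 and 11.1 CPM in the mixture, against 1.86, 3.00 and 7.39 CPM in sorted neurons, for a fitted difference of 2.06 ± 0.65 in log2 (SE, adjusted p = 0.0399, edgeR). That call was lost without a filter on low counts (adjusted p = 0.0658) and in 5 of the 6 fits that left out 1 library (adjusted p up to 0.199), and T1 had 0.155 CPM. CR44985, the microRNA host CR43459, CR45758 and CR43496 were the other 4 higher RNAs, with log2 fold changes of 1.35, 1.29, 1.19 and 1.13. Their T1 means were 40.9, 64.2, 1.58 and 9.08 CPM.

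The largest falls were to near 0. CR43126 had 1.54, 0.734 and 0.163 CPM in the mixture, against 41.1, 29.9 and 33.5 CPM in sorted neurons. The groups were far apart, with a log2 change of -4.76 ± 0.78 (SE, adjusted p = 2.43e-05, edgeR), and T1 had 0.711 CPM. CR45706 had 0.344, 0.367 and 0 CPM in the mixture, against 8.99, 9.66 and 11.7 CPM in sorted neurons, and a log2 change of -4.75 ± 1.07 (SE, adjusted p = 0.00193, edgeR), with no read in T1.

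CR43803 and CR43826, which lie on 2L inside the spans of beat-Ib and beat-Ic, moved alike. CR43803 had 0.385, 0.321 and 0 CPM in the mixture, against 7.38, 8.68 and 11.3 CPM in sorted neurons (log2 fold change -4.53 ± 0.66 SE, adjusted p = 4.79e-06, edgeR). CR43826 had 0.385, 0.505 and 0 CPM in the mixture, against 6.63, 6.39 and 11.8 CPM in sorted neurons (log2 fold change -4.20 ± 0.87 SE, adjusted p = 0.000917, edgeR). Neither pair of groups overlapped, and T1 had 0.0989 CPM of CR43803 and 0.182 CPM of CR43826. CR44506 had 1.14, 4.04 and 0 CPM in the mixture, against 19.2, 19.2 and 21.7 CPM in sorted neurons (log2 fold change -3.13 ± 0.96 SE, adjusted p = 0.0329, edgeR), a call lost in 5 of the 6 fits that left out 1 library, and T1 had 0.541 CPM.

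Among the abundant RNAs, mimi was lower in the mixture. It had 779, 312 and 256 CPM in the mixture, against 2331, 1594 and 2115 CPM in sorted neurons, with a log2 change of -1.83 ± 0.27 (SE, adjusted p = 1.64e-06, edgeR), and T1 had 345 CPM. CR45312, CR45333, CR46003 and CR46064 were the other 4 lower RNAs, with log2 fold changes of -3.04, -2.28, -1.07 and -0.62. Their T1 means were 2.30, 0.356, 7.31 and 107 CPM.

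Several well-known RNAs made no call. noe had 12378, 5437 and 11089 CPM in the mixture, against 17668, 15442 and 17870 CPM in sorted neurons, and its log2 change of -0.50 ± 0.34 missed the threshold (SE, adjusted p = 0.459, edgeR). roX1 had 11.5, 11.5 and 9.11 CPM in the mixture, against 33.2, 34.7 and 37.4 CPM in sorted neurons, without overlap. Its log2 fold change was -1.40 ± 0.70 (SE, adjusted p = 0.267, edgeR over 57 libraries). The spread of roX1 between libraries of other types entered that test, and a fit of only the 6 libraries called it (adjusted p = 0.00129, edgeR). let7C had 5.22 ± 1.29 CPM in the mixture and 7.31 ± 1.12 CPM in sorted neurons, and CR42862 had 2889 ± 2299 CPM in the mixture and 3225 ± 353 CPM in sorted neurons (SD, n = 3 each). In T1, noe had 8195 CPM, roX1 3.32 CPM, let7C 3.11 CPM and CR42862 4064 CPM.

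Gene lists that belong to these RNAs were tested in the same contrast. With edgeR none of 6 dosage compensation genes tested, 8 omega speckle protein genes, 5 microRNA processing genes or 6 nonsense-mediated decay genes passed the test, and DESeq2 called 0 in each list. At an unadjusted p below 0.05 there were 2 dosage compensation genes, 1 omega speckle protein gene, 1 microRNA processing gene and 0 nonsense-mediated decay genes. The median log2 fold changes were -0.08, -0.10, -0.13 and -0.32 in that order, against 0 over all genes tested. Of the 6 nonsense-mediated decay genes, 5 had all mixture libraries below all sorted neuron libraries in CPM, where 27.2% of all genes tested did, with log2 fold changes of -0.38 (Smg6) to -0.29 (Upf3). The acetyltransferase gene mof had 0.81 (adjusted p = 0.202, edgeR) and the RNA-binding protein gene Saf-B -0.52 (adjusted p = 0.19, edgeR) as log2 fold changes. For pasha, the partner of Drosha, the log2 fold change was -0.71 (adjusted p = 0.566, edgeR). The dosage compensation gene msl-2, whose protein is the male-specific subunit of the complex that holds roX RNA, had a log2 fold change of -0.57 (adjusted p = 0.238, edgeR). Of 7 genes of the fat body and sex determination list, only the sex determination gene tra was higher (log2 fold change 1.23, adjusted p = 0.0035, edgeR). Among markers tested, neurons had 1 of 6 higher, glia 1 higher and 2 lower of 9, photoreceptors 1 of 6 lower and hemocytes 1 of 4 higher. For T1, 1 of 1 (Eaat1) was higher. For the Mi1 list, whose sum was highest in Lawf1, 2 of 2 were higher. With edgeR or DESeq2, 0 of 4 fat body and 0 of 4 muscle genes passed (0 and 1 at an unadjusted p below 0.05). The summed glial list had 880 to 4460 CPM in the mixture and 588 to 919 CPM in sorted neurons, and most of it was Eaat1.

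Position relative to protein-coding genes was not used to choose the 57. For each, the nearest tested protein-coding gene was taken, and the Pearson r of log2(CPM + 1) was computed over the 17 type means, which share libraries and depth. The median r was 0.56, and 32 of 57 pairs (56.1%) had r of 0.5 or more. For the other 817 tested long noncoding RNA genes the median was 0.48, with 48.8% at 0.5 or more. For the 4769 protein-coding genes at 50 CPM or more and their own nearest protein-coding gene it was 0.41, with 42.3%. Where exons overlapped, the median r was 0.73 (21 pairs). Where the RNA lay within the span without shared exon bases it was 0.33 (8 pairs), and beside the gene it was 0.48 (28 pairs). Some neighbours beside the RNA were near 0 in every type, and r rests on few reads there. Examples are CG43271 (at most 1.66 CPM in a type mean) and CG3347 (at most 1.35 CPM). A read over shared bases cannot be assigned to either gene with certainty, and the pairs without shared exon bases are described first.

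CR43126 lies 784 bases from fkh, a forkhead transcription factor gene, on the opposite strand and shares no exon base with it. The pair had r of 0.99. fkh was highest in Dm8 with a mean of 1507 CPM and next in T3 with 1306 CPM, the same 2 leading types as CR43126. In the mixture, fkh averaged 3.24 ± 2.27 CPM, against 119 ± 9.84 CPM in sorted neurons (log2 fold change -4.70 ± 0.78 SE, adjusted p = 3.42e-05, edgeR), near the log2 value of CR43126.

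The RNAs inside beat-Ic and beat-Ib, which encode surface proteins of the immunoglobulin family, had r of 0.96 (CR43826) and 0.95 (CR43803) with these genes. beat-Ic had 2138 CPM in T3 and 2109 CPM in T2, and beat-Ib had 1356 CPM in T3 and 912 CPM in T2, while CR43803 was highest in T2 (97.0 ± 22.7 CPM) and CR43826 in T3 (58.3 ± 0.555 CPM). Both coding genes were lower in the mixture, beat-Ic at 13.8 ± 7.26 CPM in the mixture and 285 ± 7.32 CPM in sorted neurons (log2 fold change -4.0, adjusted p = 4.64e-05, edgeR). beat-Ib had 5.26 ± 1.75 CPM in the mixture and 152 ± 17.2 CPM in sorted neurons (log2 fold change -4.48, adjusted p = 6.26e-06, edgeR). The RNAs lie in introns of these genes on the opposite strand. Because strand is not marked, unspliced reads of the host gene over those bases would be counted to the RNA, and their part was not tested.

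The same limit holds for CR44187 and CR44188, which lie 196 bases apart inside Hr38, an activity-regulated nuclear receptor gene. Hr38 was highest in C3 at 2720 CPM and next in Lawf2 at 1782 CPM, and r was 0.60 for CR44187 and 0.62 for CR44188. CR44188 was highest in Tm3, where its libraries had 157, 59.6 and 28.3 CPM, so that mean rests mainly on 1 library. Hr38 was higher in the mixture, with 1002 ± 480 CPM in the mixture and 280 ± 82.3 CPM in sorted neurons (log2 fold change 2.13, adjusted p = 0.00255, edgeR), as CR44188 was.

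Pairs with overlapping exons included CR46008 and pros, a homeodomain factor gene with 10681 CPM in Dm12 and 1206 CPM in C2 (r of 0.94). They also included CR45223 and CG14322 (r of 0.95, Dm8 highest for both at 822 CPM for the RNA and 928 CPM for the gene), let7C and CG10283 (r of 0.93), and CR45668 and CG16721 (r of 0.98, T1 highest for both). In these pairs the overlap of exon bases stands beside the likeness. At the low end, CR43685 had r of -0.50 with e(y)2b, which lies 228 bases away, and 10 of the 57 had r below 0. noe and its host blot had r of -0.24.

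**Figure D5:**
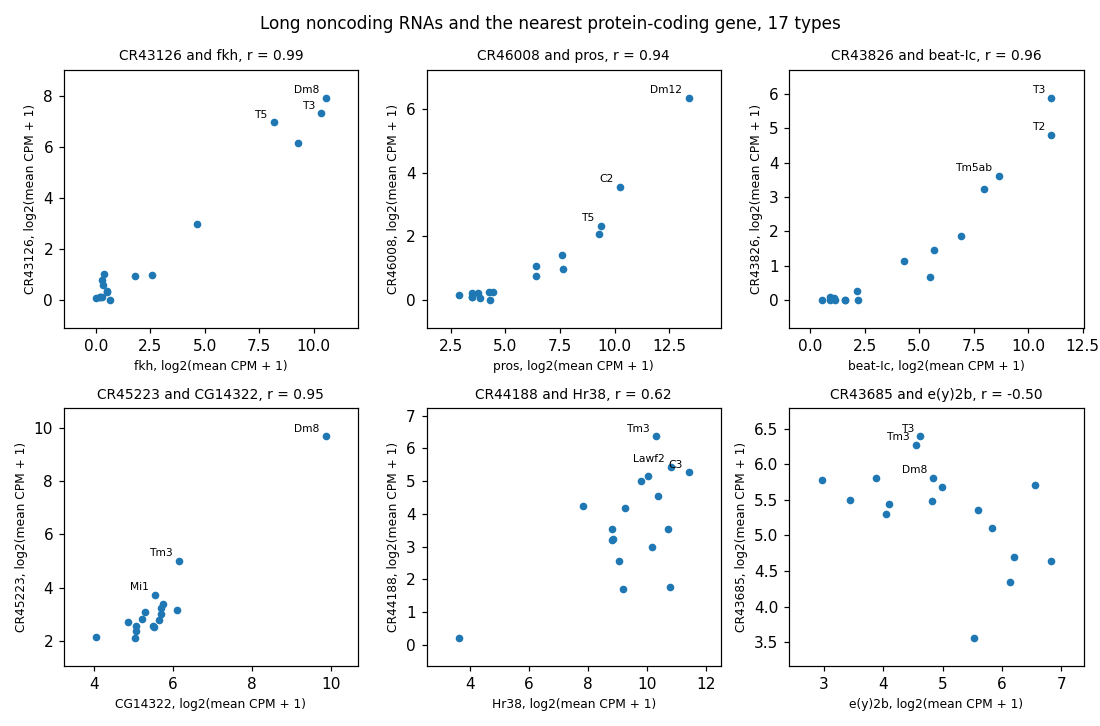
log2(mean CPM + 1) of 6 long noncoding RNAs (vertical) against the nearest protein-coding gene (horizontal) in 17 types, each point 1 type, with the 3 types of highest RNA level named. CR43126 and fkh have r of 0.99, while CR43685 and e(y)2b have r of -0.50.

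Of the 19 RNAs called in the mixture, 6 had a nearest protein-coding gene called in the same direction, none in the other direction, and 13 had a neighbour without a call. Of all genes tested, 7.96% were called, 4.5% higher and 3.46% lower. Among the 38 RNAs without a call, 7 neighbours were called (18.4%). The neighbour was called in the same direction for 31.6% of the 19, for 43.3% of the other 30 long noncoding RNA genes called and for 12.9% of 751 called protein-coding genes at 50 CPM or more in a type. The share for the 19 thus lay below that of other long noncoding RNA genes, and these differences were not tested. The 6 were CR43126 with fkh, CR43826 with beat-Ic, CR43803 with beat-Ib, CR44506 with Obp56a, CR44985 with Ncoa6 and CR44188 with Hr38. CR44985 shares 54.3% of its exon bases with Ncoa6, and CR43826, CR43803 and CR44188 lie inside their neighbours. Thus 2 of the 6, CR43126 and CR44506, lie beside the gene. Obp56a, which lies 528 bases from CR44506 on the same strand, was near 0. It had 0.063 ± 0.054 CPM in the mixture and 1.35 ± 0.64 CPM in sorted neurons. Hsromega and mimi, both called, had neighbours that did not pass the test, aus (log2 fold change -0.05, adjusted p = 0.936, edgeR) and CG13603 (log2 fold change -0.03, adjusted p = 0.994, edgeR).

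Long noncoding RNAs near each other were alike in 5 of 8 pairs, with r of 0.86 or more, and had r below 0.4 in the other 3. Within 50 kb, 8 pairs of the 57 involved 13 genes, and their median r was 0.90, against 0.11 over all 1596 pairs. The highest were CR43199 and CR45533 (0.97, 264 bases apart on X), CR43803 and CR43826 (0.96), CR45332 and CR45333 (0.93) and CR46003 and CR46004 (0.93, which share 455 exon bases). CR43199 was highest in Tm2 (63.9 ± 4.53 CPM) and CR45533 in Mi1 (88.5 ± 15.2 CPM), each with the other type next. The fifth was CR44187 and CR44188 (0.86). The 3 low pairs were CR46004 and CR46006 (0.39), CR46003 and CR46006 (0.38, 15533 bases apart) and CR43459 and CR45054 (0.05, 3236 bases apart).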

How the data were processed

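RNA of FACS-sorted optic lobe neurons was sequenced in 57 libraries of 19 groups. The authors used HTSeq 0.6.1, Trimmomatic 0.32, STAR 2.5.2 and the build BDGP6, as the submitters' processing notes list them. The annotation release and strand setting are not given in the sources used here. The authors deposited unnormalized counts, whole reads for each FlyBase gene. The HTSeq summary lines, kept out of totals and tests, held 40.5% to 49.2% of counted reads as no feature, 0.746% to 1.69% as ambiguous and 7.15% to 23.3% as not unique.

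CPM was computed from each column's sum of gene counts. Symbols matched 17252 of 17558 genes, and positions came from Ensembl release 115. The long noncoding RNAs and all lists were chosen with earlier results of these data known. RNAs named are those with a known role or a microRNA, the 10 highest, the 12 leading ones of largest ratio to the next type with 1 for each further type, the 10 of smallest spread, the 5 of largest change each way and the 3 on each side of 50 CPM. Others named were chosen after their values were seen.

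The test was edgeR 4.0.16 (R 4.3.3; TMM, filterByExpr, robust quasi-likelihood, 1 coefficient per group over 57 libraries), with Benjamini-Hochberg adjustment over all genes tested. DESeq2 1.42.0 was an alternative. The scripts were tested on simulated data. Library numbers do not pair the mixture with sorted neurons. Limits for a count of 0 stand for 3 reads over the group's libraries and cover counting error only. No sequences are printed.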

Additional observations from a re-analysis of the deposited data

How the results depend on the processing

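With a level of 25 CPM the set would hold 93 long noncoding RNAs, and with 100 CPM it would hold 36. TMM scaling gave 64, DESeq2 size factors 65, 50 CPM in each of the 3 libraries 53, and leaving out T2 56. Leaving out 1 library at a time gave 56 to 58 RNAs in the set and 28 to 30 with a leading type. The number with a leading type was 28, and it was 30 with TMM (24 of them shared), 31 with DESeq2 size factors, 29 without T2 and 20 without the RNAs that share over 10% of their exon bases. In the mixture against sorted neurons, 1 library left out gave 6 to 8 higher and 7 to 8 lower RNAs, all among the 9 and 10. The 6 higher came without the third mixture library and without the first or the second sorted neuron library. DESeq2 gave 9 higher and 12 lower, no filter on low counts 8 and 10, and the 6 libraries alone 11 and 14. No pairing was found between library numbers: deviations of same-numbered libraries correlated at 0.0716, 0.00694 and 0.0396. With a replicate block 9 were higher and 10 lower, and with the block in the 6 libraries alone, added after seeing the data, 10 and 14. Of 228 values of named RNAs under alternatives, 215 kept direction and side of the threshold, 11 lost the call (CR44188 in 6 and CR44506 in 5), 2 gained it (roX1) and 0 reversed. The median r with the nearest protein-coding gene was 0.56 and ranged from 0.48 without overlapping exons to 0.61 without T2. The cause of these changes was not tested. Depth limits T2 most, where 0 reads allow up to 0.238 CPM, against 0.0298 CPM in the mixture.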

Other observations

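Other long noncoding RNAs with a described role were at or near 0 in these neurons. bxd, a transcript of the bithorax complex, had no read in any of the 17 types, and iab8 reached at most 0.123 CPM (T3) in a type mean. yar reached 0.0745 CPM (Tm5c) and flam, the piRNA cluster transcript of the ovary, 0.248 CPM (Tm9). cherub, known from neural stem cell tumours, reached 5.59 ± 6.89 CPM and sphinx 3.32 ± 5.75 CPM, both in T2, the shallowest group, where the SD exceeds the mean. roX2 reached 17.5 ± 16.7 CPM in Tm9 and had no read in the mixture, against 1.67 ± 0.374 CPM in sorted neurons.

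Across the 17 type means, r of logged Hsromega with the summed heat shock list was 0.13 and with the summed omega speckle protein list 0.22. roX1 had r of 0.62 with roX2 and 0.56 with msl-2. Type means share libraries and depth, and these values are descriptions.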
